A study of Mus musculus with 47 samples.

Results

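Ribosome biogenesis and nucleolar genes encode the proteins with which a cell makes new ribosomes, and 39 of them were chosen from a list of symbols. A probe set, the array's unit of measurement for a transcript, was taken as a member's when it carried that symbol alone. Of the 39 genes listed, 38 passed the filter, which mostly asked for a measured value on at least 3 arrays, out of 13509 genes in all. The remaining gene, Rrp9, a protein of the U3 particle, had 1 probe set and was blank on every array. The members had 82 probe sets. Where a gene had several, the one of highest mean level stood for it, and in 16 members that one was measured on all 47 arrays. Members were listed by known function, with no threshold on a measured value, but with earlier results of these data known.

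The study measured RNA from crypts and villi of the small intestine of C57BL/6 mice on 47 Affymetrix arrays. The genetic arm compared Apc1638N/+ mice, which carry an altered Apc tumour suppressor allele, and p21-/- mice, which lack the cell cycle inhibitor Cdkn1a, with wild-type mice. All 3 genotypes were labelled 3 months old and were kept on the Ain76A diet. In the diet arm, wild-type mice labelled 1 year old had eaten NWD1, NWD2 or Ain76A from weaning for 1 year. Each combination of tissue and genotype or diet was 1 group of 4 arrays, except villi of NWD2 mice with 3. Nothing in the labels says that the arrays of a group came from separate animals, so p-values measure the spread between these samples, which may be technical. The samples are bulk tissue fractions, in which fewer cells of a type and less RNA per cell cannot be told apart.

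Ribosomes are assembled in the nucleolus, where RNA polymerase I transcribes the ribosomal RNA precursor. Small nucleolar ribonucleoproteins methylate and pseudouridylate the precursor, and large sets of assembly factors, helicases and GTPases fold and cut it into the small and large subunits. In the small intestine, stem cells and rapidly dividing progenitors lie in the crypts, and differentiated, non-dividing absorptive and goblet cells cover the villi. The transcription factor Myc binds the E-box CACGTG and is known to drive many ribosome biogenesis genes in dividing cells.

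Promoter sequences were available from RefSeq (GRCm38.p6) for 33 of the 39 genes, each as 250 bases before and 50 bases after a start site. The E-box CACGTG, which reads the same on both strands, was searched as those 6 letters. It was found before the start in 1 member, Nop2, which is 3.03% of them, against 6.86% of all 27025 genes with a promoter entry. In the whole 300 bases it was found in 6 members, or 18.2%, against 8.09% of all genes. In Pes1, Wdr43, Tsr1, Utp20 and Mybbp1a it lay within the first 50 bases after the start, a stretch whose search was added after the data had been seen. A match is a description of these letters only. The 6 stretches of 30 bases that hold it are shown because Nop2, Wdr43, Tsr1 and Mybbp1a recur in the comparisons, and capitals mark the E-box.
Nop2: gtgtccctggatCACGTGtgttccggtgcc
Pes1: ccctaggcagggCACGTGcgggaggaagta
Wdr43: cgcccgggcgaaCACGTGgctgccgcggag
Tsr1: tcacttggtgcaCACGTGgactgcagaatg
Utp20: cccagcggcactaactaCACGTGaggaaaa
Mybbp1a: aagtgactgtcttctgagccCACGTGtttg
In these stretches the E-box began 60 bases before the start of Nop2 (chr6:125131811-125131840, plus strand). It began 2 bases after the start of Pes1 (chr11:3963965-3963994, plus strand) and 17 bases after that of Wdr43 (chr17:71616220-71616249, plus strand). The distance was 24 bases in Tsr1 (chr11:74898092-74898121, plus strand), 37 in Utp20 (chr10:88826765-88826794, minus strand) and 40 in Mybbp1a (chr11:72441347-72441376, plus strand).

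The 100 bases before the start are shown for the 3 members with a promoter entry and the largest mean contrast between crypts and villi, Nop56, Nhp2 and Gnl3. Capitals mark CCGGAAG, the core recognised by ETS transcription factors, searched on both strands.
Nop56: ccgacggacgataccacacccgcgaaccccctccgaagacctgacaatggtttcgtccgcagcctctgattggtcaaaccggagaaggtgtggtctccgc
Nhp2: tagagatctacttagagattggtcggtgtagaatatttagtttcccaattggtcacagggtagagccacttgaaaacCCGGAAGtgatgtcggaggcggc
Gnl3: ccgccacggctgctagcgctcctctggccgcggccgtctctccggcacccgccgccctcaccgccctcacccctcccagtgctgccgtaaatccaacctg
These stretches lie at chr2:130274312-130274411 (plus strand), chr11:51619673-51619772 (plus strand) and chr14:31019132-31019231 (minus strand). Nhp2 held the ETS core 23 bases before its start, and the letters are not in the other two windows. Across members, 8 of 33 held it within 250 bases before the start (24.2%), against 7.83% of all genes with an entry. The 8 were Gar1, Nhp2, Nolc1, Polr1c, Heatr1, Nop2, Wdr74 and Nip7. This motif was chosen after the data had been seen.

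The label of tissue was checked against markers. Of 10 markers of cycling crypt cells, 9 passed the filter, and all those tested were higher in crypts, 7 of 7 in wild-type mice and 8 of 8 on Ain76A. Markers of absorptive enterocytes separated the fractions less evenly. In wild-type mice at 3 months 3 of 9 were lower in crypts and 1 was higher, while on Ain76A at 1 year 9 of 9 were lower in crypts. A crypt-villus score was also taken as the mean log2 level of genes higher in crypts minus that of genes higher in villi, with the genes chosen in the other arm of the study and the ribosome biogenesis genes left out. Wild-type crypts scored 2.19, 0.07, 1.24 and 0.26, and arrays 2 and 4 stood nearer to villi than the others. Villi of NWD2 mice scored 0.26, -1.42 and -1.37, and villi of NWD1 mice -0.43, -0.48, -1.72 and -2.14, against -2.55 to -1.92 in Ain76A villi. The first NWD2 villus array and NWD1 villus arrays 1 and 2 lay toward crypts. Between 14758 and 23296 probe sets had a value on an array, with the fewest in p21-/- crypts (14758 to 17315, against 19034 to 22020 in wild-type crypts). One Cdkn1a probe set was blank on all 8 p21-/- arrays and measured on the 16 other arrays of the genetic arm, while another, 1424638_at, was measured on all of them. Its level was not lower in p21-/- villi, at 13.17, 13.39, 12.69 and 13.18, against 12.70, 12.85, 12.40 and 12.98 in wild-type villi, and in crypts it was 11.24, 11.81, 11.57 and 12.17 in p21-/- mice, against 11.43, 12.96, 12.63 and 12.85 in wild-type mice. In villi only the first of these probe sets followed the label, and the files do not say whether either lies in the deleted stretch.

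Ribosome biogenesis genes were detected more often, and at higher levels, in crypts than in villi. Among the 38 members with values, 37 to 38 were measured per array in Ain76A crypts, against 26 to 31 in Ain76A villi. In wild-type mice the counts were 33 to 37 in crypts and 22 to 28 in villi. Noc3l (probe set 1426286_at), an assembly factor of the large subunit, was measured on 14 of 24 crypt arrays and 0 of 23 villus arrays. Wdr12, a member of the PeBoW complex, was measured on 19 of 24 crypt arrays and 1 of 23 villus arrays, and Polr1a, the largest subunit of RNA polymerase I, on 14 of 24 crypt arrays and 1 of 23 villus arrays. Utp20, a scaffold of the small subunit processome, was measured on 24 of 24 crypt arrays and 7 of 23 villus arrays. A test between tissues asked for at least 3 measured arrays in each group. On the probe sets used, Noc3l, Wdr12 and Polr1a could therefore be tested in no condition and Utp20 on NWD1 alone. Another Noc3l probe set, 1437500_at, was measured on 35 arrays, and with it Noc3l was called higher in crypts on NWD1 and Ain76A. Another Wdr12 probe set, 1417270_at, was measured on 25 arrays. The files do not say why a value is blank, and the counts of tested members leave out those with few villus values.

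The mean log2 level of the 16 members measured on every array separated crypts from villi in each condition. In NWD2 mice it was 11.04, 10.32, 10.12 and 10.57 in crypts, against 10.00, 9.04 and 9.04 in villi. In Ain76A mice it was 11.42, 11.12, 11.30 and 11.24 in crypts, against 9.12, 8.86, 9.19 and 8.95 in villi. No crypt array of any group was as low as any villus array. The lowest crypt array, NWD2 array 3, stood at 10.12, and the highest villus array, NWD2 array 1, at 10.00. The group means in the diet arm were 10.98 ± 0.14 in NWD1 crypts, 10.51 ± 0.40 in NWD2 crypts and 11.27 ± 0.12 in Ain76A crypts (SD, n = 4 each). In the genetic arm they were 10.97 ± 0.28 in Apc1638N/+ crypts, 11.05 ± 0.28 in p21-/- crypts and 10.83 ± 0.21 in wild-type crypts (SD, n = 4 each).

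**Figure D1:**
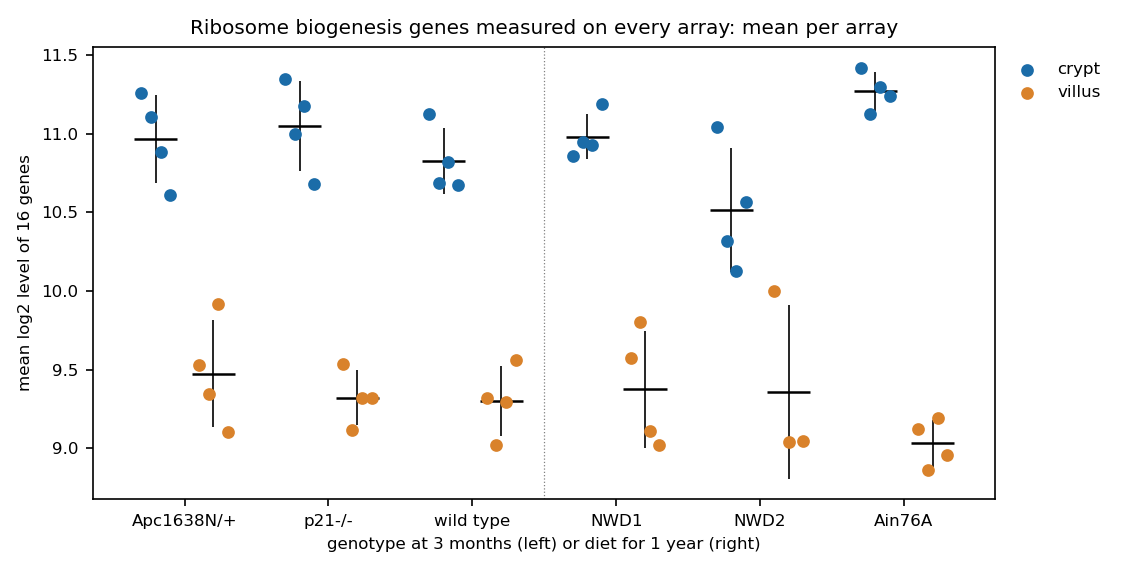
Mean log2 level of the 16 ribosome biogenesis genes measured on all 47 arrays, one point per array, for crypts (blue) and villi (orange) of each genotype or diet. Horizontal bars are group means and vertical bars 1 SD (n = 4, NWD2 villi n = 3). Every crypt array lies above every villus array, NWD2 crypts spread from 10.12 to 11.04, and NWD2 villus array 1 lies at 10.00.

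The first comparison asked how ribosome biogenesis genes differ between crypts and villi. In wild-type mice 20 of 23 tested members were higher in crypts and none lower at an adjusted p under 0.05 (limma, Benjamini-Hochberg over all genes tested), where 20.3% of all tested genes were called higher. In Apc1638N/+ mice 24 of 27 were higher in crypts (background 21.1%), and in p21-/- mice 24 of 26 (background 23.7%). On the diets 31 of 31 were higher in NWD1 crypts (background 22%), 19 of 28 in NWD2 crypts (background 7.6%) and 30 of 30 in Ain76A crypts (background 26.8%). No member was called lower in any of the 6 conditions, where 26% of all tested genes were in wild-type, 20.5% in Apc1638N/+, 22.4% in p21-/-, 19.9% in NWD1, 4.91% in NWD2 and 25.8% in Ain76A mice. The fold of each tested member was positive in each condition, as it was in 44% of all tested genes in wild-type, 50% in Apc1638N/+, 50.3% in p21-/-, 50.2% in NWD1, 46.8% in NWD2 and 50% in Ain76A mice. The median log2 fold of the tested members was 1.43 in wild-type mice, 1.46 in Apc1638N/+ mice, 1.52 in p21-/- mice, 1.62 on NWD1, 1.13 on NWD2 and 2.18 on Ain76A. Over all tested genes the median ran from -0.12 in wild-type mice to 0.01 in p21-/- mice. The markers of cycling cells moved with these genes, and the part of cell composition in the contrast was not tested. Without NWD2 crypt array 1 the NWD2 count was 12, and without villus arrays 2 and 3 in turn it was 10 and 9. Same-numbered crypts and villi deviated together on NWD2, and with the replicate number as a block the NWD2 count was 23, which adds Ddx21, Noc2l, Noc4l and Pes1.

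**Figure D2:**
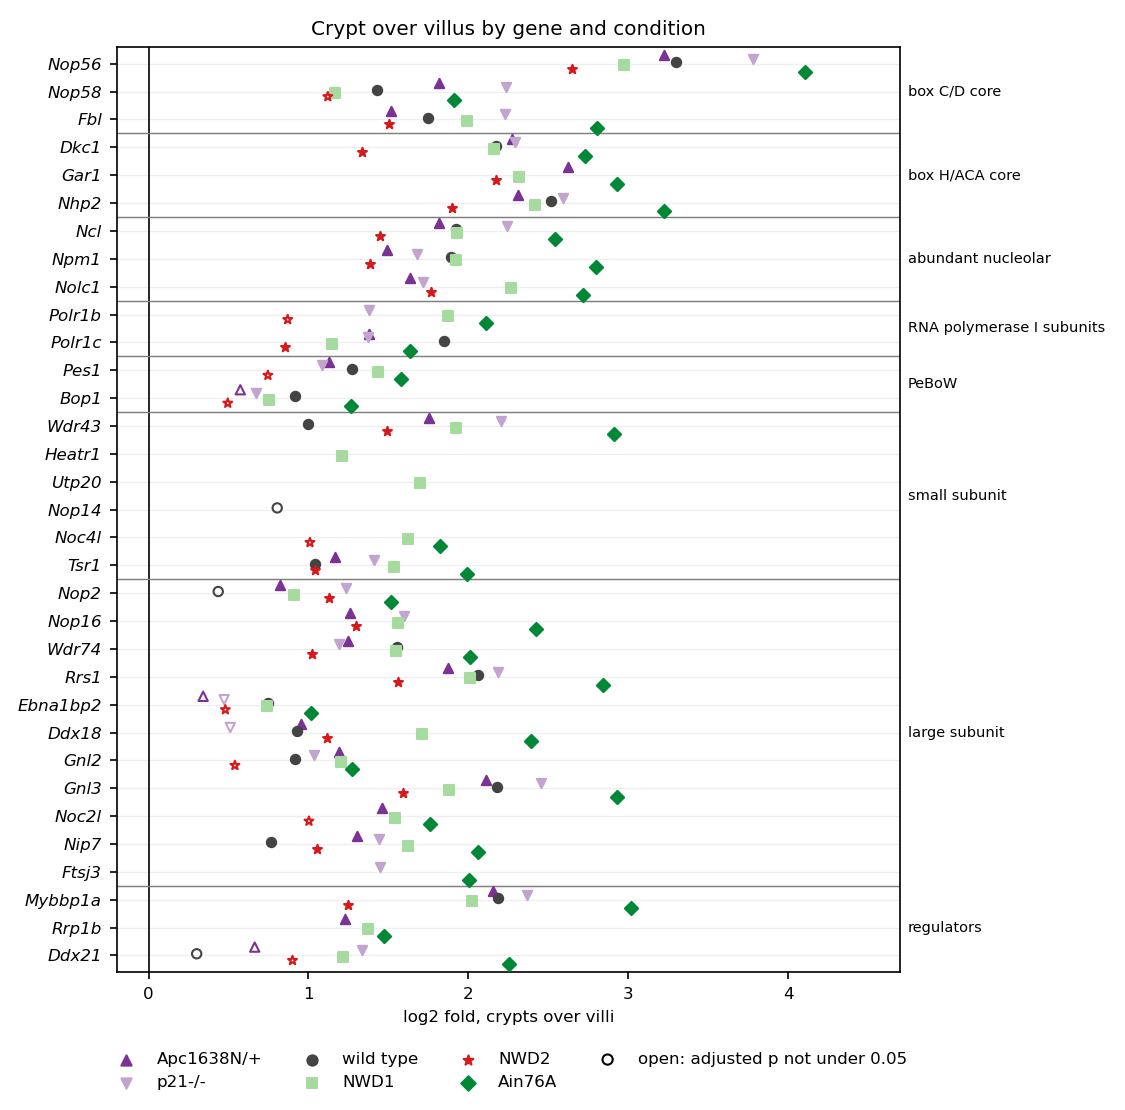
Log2 fold of crypts over villi (x axis) for each tested ribosome biogenesis gene (rows, grouped by role) in the 6 genotypes and diets. Filled symbols passed an adjusted p under 0.05 and open symbols did not. All folds lie right of 0, and Nop56 is farthest right in each condition, from 2.65 on NWD2 to 4.10 on Ain76A.

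The box C/D proteins Nop56, Nop58 and Fbl form the core of the particles that guide methylation of ribosomal RNA, with fibrillarin (Fbl) as the methyltransferase. All 3 were called higher in crypts in every condition except Nop58 on NWD2. Nop56 (probe set 1455035_s_at) had the largest fold of any member in all 6 conditions. In wild-type mice its log2 levels were 11.85, 11.36, 11.94 and 11.68 in crypts, against 9.14, a blank, 7.05 and 9.03 in villi, a log2 fold of 3.30 (SE 0.39, adjusted p = 1.85e-08). In Ain76A mice they were 12.38, 11.87, 12.37 and 12.27 in crypts, against 8.46, 8.02, 7.90 and 8.10 in villi (log2 fold 4.10, SE 0.36, adjusted p = 1.98e-11). The levels of the 2 tissues did not overlap in any condition, and on NWD2 the crypts lay closest to the villi.
In NWD2 mice Nop56 stood at 11.66, 10.61, 9.97 and 11.08 in crypts, against 9.23, 7.72 and 7.60 in villi (log2 fold 2.65, SE 0.39, adjusted p = 1.91e-05). Fbl (1416685_s_at) reached 12.40, 11.07, 11.67 and 10.84 in crypts, against 9.63, 9.63, 9.29 and 10.44 in villi, in wild-type mice (log2 fold 1.75, SE 0.33, adjusted p = 3.89e-05). Its tissues did not overlap there, although crypt array 4 lay little above villus array 4. For Nop58 (1450986_at) the wild-type levels were 10.70, 8.66, 10.13 and 9.75 in crypts, against 8.24, 8.31, 9.14 and 7.83 in villi (log2 fold 1.43, SE 0.38, adjusted p = 0.002), and crypt array 2 lay below villus array 3. On NWD2 Nop58 levels were 9.08, 9.04, 8.77 and 9.14 in crypts, against 8.20, 7.67 and 7.80 in villi, without overlap, and the difference did not pass (log2 fold 1.12, SE 0.41, adjusted p = 0.061).

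The box H/ACA proteins guide pseudouridylation, with dyskerin (Dkc1) as the enzyme and Nhp2 and Gar1 as partners, and they are also parts of telomerase. Each was called higher in crypts wherever it could be tested. Nhp2 had the next largest mean log2 fold over the 6 conditions after Nop56 among members tested in all of them. On Ain76A its levels were 12.66, 12.33, 12.60 and 12.40 in crypts, against 9.41, 8.47, 9.81 and 9.40 in villi (log2 fold 3.22, SE 0.35, adjusted p = 8.06e-10). In NWD2 mice Nhp2 stood at 12.26, 11.35, 11.02 and 11.69 in crypts, against 10.92, 9.00 and 9.11 in villi (log2 fold 1.90, SE 0.38, adjusted p = 0.000933). Both contrasts were free of overlap, but NWD2 crypt array 3 and villus array 1 nearly met. Dkc1 levels on Ain76A were 10.64, 10.50, 10.65 and 10.56 in crypts, against 7.76, 7.59, 8.19 and 7.89 in villi, with log2 folds of 2.73 there and 1.34 on NWD2 (adjusted p = 0.00581). Gar1 was blank on several villus arrays and could be tested in Apc1638N/+, NWD1, NWD2 and Ain76A mice, with log2 folds of 2.62, 2.32, 2.17 and 2.93.

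Nucleolin (Ncl), nucleophosmin (Npm1) and Nolc1 are abundant nucleolar proteins that chaperone ribosomal RNA, ribosomal proteins and small nucleolar particles. All those tested were higher in crypts in each condition. Ncl in p21-/- mice stood at 14.19, 13.57, 13.57 and 13.19 in crypts, against 11.50, 11.12, 11.30 and 11.63 in villi (log2 fold 2.24, SE 0.29, adjusted p = 7.09e-08). On Ain76A its levels were 13.81, 13.09, 13.38 and 13.47 in crypts, against 11.19, 10.41, 11.08 and 10.91 in villi (log2 fold 2.54, SE 0.29, adjusted p = 1.76e-09). The tissues were separate in both. Npm1 on Ain76A had levels of 13.89, 13.42, 13.59 and 13.57 in crypts, against 11.03, 10.74, 10.78 and 10.73 in villi (log2 fold 2.80, SE 0.27, adjusted p = 6.45e-11), with 4 crypt arrays and 4 villus arrays each within a narrow band. On NWD2 the Npm1 levels were 13.63, 12.74, 12.50 and 12.88 in crypts, against 12.27, 11.22 and 11.16 in villi, and the log2 fold was 1.39 (adjusted p = 0.00144). Nolc1 had log2 folds of 1.63 in Apc1638N/+, 1.72 in p21-/-, 2.27 in NWD1, 1.77 in NWD2 and 2.71 in Ain76A mice, and too few wild-type villus values for a test.

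RNA polymerase I makes the ribosomal RNA precursor, and Polr1c is a subunit that it shares with RNA polymerase III. Polr1c was called higher in crypts in all 6 conditions. In wild-type mice its levels were 10.42, 11.05, 10.13 and 10.61 in crypts, against 8.73, 8.57, 8.81 and 8.71 in villi (log2 fold 1.85, SE 0.21, adjusted p = 5.81e-09), with a wide gap between the tissues. On NWD2 they were 10.28, 9.93, 9.61 and 10.17 in crypts, against 9.43, 9.29 and 8.73 in villi (log2 fold 0.85, SE 0.22, adjusted p = 0.00953). Polr1b, the second largest subunit, was called higher in p21-/-, NWD1 and Ain76A crypts, with log2 folds of 1.38, 1.87 and 2.11. On NWD2 Polr1b stood at 9.07, 8.46, 8.34 and 8.31 in crypts, against 8.13, 7.44 and 7.46 in villi and did not pass (log2 fold 0.87, SE 0.45, adjusted p = 0.209). Pes1 and Bop1 belong to the PeBoW complex, which matures the large subunit, and had smaller contrasts. Pes1 log2 folds were 1.27 in wild-type mice and 1.58 on Ain76A, both called. For Bop1 the Ain76A levels were 10.24, 10.35, 10.15 and 10.44 in crypts, against 9.14, 9.16, 9.04 and 8.78 in villi (log2 fold 1.26, SE 0.25, adjusted p = 4.38e-05). On NWD2 Bop1 stood at 10.34, 9.95, 9.89 and 9.91 in crypts, against 9.73, 9.40 and 9.44 in villi, a gap that did not pass (log2 fold 0.50, SE 0.27, adjusted p = 0.231), nor did Pes1 (log2 fold 0.75, adjusted p = 0.0733). Bop1 also missed the threshold in Apc1638N/+ mice, with 9.22, 9.02, 9.89 and 9.09 in crypts, against 8.63, 8.25, 9.72 and 8.33 in villi (log2 fold 0.57, SE 0.25, adjusted p = 0.0617).

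Of the small subunit factors, Wdr43 belongs to the processome that binds the start of the precursor, and Tsr1 acts late, on the cytoplasmic pre-40S particle. Both were called higher in crypts in all 6 conditions. Wdr43 (1428390_at) in p21-/- mice stood at 11.57, 11.43, 12.13 and 11.42 in crypts, against 9.37, 9.23, 9.48 and 9.65 in villi (log2 fold 2.20, SE 0.32, adjusted p = 6.66e-07). In wild-type mice its levels were 10.81, 10.23, 10.41 and 10.34 in crypts, against 9.79, 8.51, 9.60 and 9.90 in villi (log2 fold 1.00, SE 0.32, adjusted p = 0.0101). The tissues overlapped in neither genotype, and the gap was narrower in wild-type mice. Tsr1 levels on Ain76A were 11.49, 11.13, 11.35 and 11.39 in crypts, against 9.31, 9.08, 9.43 and 9.57 in villi (log2 fold 1.99, SE 0.27, adjusted p = 5.2e-08), and on NWD2 its log2 fold was 1.04 (adjusted p = 0.0132). Nop14, which binds Noc4 in the early particle in yeast, could be tested in wild-type mice alone and did not pass, at 8.95, 8.77, 8.57 and 8.74 in crypts, against 7.89, a blank, 7.51 and 8.45 in villi (log2 fold 0.80, SE 0.35, adjusted p = 0.0611). Noc4l was called on NWD1 and Ain76A, with log2 folds of 1.62 and 1.82, and not on NWD2 (log2 fold 1.01, adjusted p = 0.0515). With its probe set measured on the most arrays, Noc4l was also called in Apc1638N/+, p21-/- and NWD2 mice. Heatr1 and Utp20 were tested on NWD1 alone and were called there (log2 folds 1.21 and 1.70). Rrp12 and Nob1, the nuclease that makes the mature end of the 18S RNA, had too few villus values in each condition.

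Factors of the large subunit ranged from clear contrasts to none that passed. Gnl3, or nucleostemin, is a nucleolar GTPase found in stem and dividing cells, and its levels on Ain76A were 11.62, 11.51, 11.76 and 11.35 in crypts, against 8.63, 8.27, 9.08 and 8.52 in villi (log2 fold 2.93, SE 0.28, adjusted p = 5.05e-11). In p21-/- mice Gnl3 stood at 12.11, 11.28, 11.61 and 10.95 in crypts, against 9.50, 8.85, 9.20 and 8.58 in villi (log2 fold 2.46, SE 0.28, adjusted p = 4.69e-09). Gnl3 tissues did not overlap in either condition. Rrs1, which brings the 5S particle into the precursor in yeast, was called in all 6 conditions with log2 folds from 1.56 on NWD2 to 2.84 on Ain76A. At the low end stood Ebna1bp2, the mammalian counterpart of a yeast assembly factor. Ebna1bp2 levels in Apc1638N/+ mice were 10.25, 9.43, 9.98 and 9.75 in crypts, against 9.42, 9.64, 9.45 and 9.53 in villi, with overlap and no call (log2 fold 0.34, SE 0.22, adjusted p = 0.214). It missed the threshold in p21-/- mice (log2 fold 0.47, adjusted p = 0.0755) and on NWD2 (log2 fold 0.48, adjusted p = 0.184) too. A different Ebna1bp2 probe set, 1437512_x_at, had a log2 fold of -0.19 in wild-type mice, opposite in sign to the 0.75 of the one used.
Nop2, a methyltransferase of the large subunit RNA, was called in each condition except the wild type, where its levels were 9.39, 9.83, 10.26 and 9.84 in crypts, against a blank, 9.01, 9.13 and 10.05 in villi (log2 fold 0.44, SE 0.24, adjusted p = 0.139). The wild-type tissues overlapped through villus array 4, which lay above 3 of the crypt arrays. Nop2 on Ain76A stood at 10.39, 10.40, 10.59 and 10.00 in crypts, against 8.72, 8.57, 9.11 and 8.92 in villi (log2 fold 1.52, SE 0.23, adjusted p = 4.66e-07), with the tissues apart. Ddx18, a helicase, did not pass in p21-/- mice (log2 fold 0.51, adjusted p = 0.262), and Gnl2 and Noc2l did not pass on NWD2 (log2 folds 0.54 and 1.00, adjusted p = 0.321 and 0.0553). With its probe set measured on the most arrays, 1416070_a_at, Ddx18 was called higher in p21-/- crypts than in villi. Nip7 was called in all 6 conditions and Nop16, Wdr74 and Ftsj3 wherever tested, with log2 folds between 0.77 for Nip7 in wild-type mice and 2.43 for Nop16 on Ain76A.

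Among the regulators, Mybbp1a, a nucleolar partner of Myb and RNA polymerase I, was called higher in crypts in all 6 conditions. Its levels on Ain76A were 12.14, 11.75, 12.10 and 11.93 in crypts, against 9.08, 8.45, 9.35 and 8.98 in villi (log2 fold 3.02, SE 0.35, adjusted p = 3.47e-09). On NWD2 they were 11.65, 10.34, 10.33 and 10.58 in crypts, against 10.31, 9.12 and 8.98 in villi (log2 fold 1.25, SE 0.38, adjusted p = 0.0252), and crypt arrays 2 and 3 barely cleared villus array 1. Ddx21, a helicase linked to polymerase I transcription, did not pass in wild-type mice, with 9.43, 8.59, 8.58 and 8.11 in crypts, against 8.63, 8.10, 8.26 and 8.52 in villi and overlapping tissues (log2 fold 0.30, SE 0.34, adjusted p = 0.48). On Ain76A Ddx21 stood at 9.78, 9.76, 9.93 and 9.74 in crypts, against 7.35, 7.96, 7.11 and 7.78 in villi, without overlap (log2 fold 2.25, SE 0.34, adjusted p = 4.26e-07). It also failed to pass in Apc1638N/+ mice (log2 fold 0.66, adjusted p = 0.139) and on NWD2 (log2 fold 0.90, adjusted p = 0.0937). Rrp1b was called in Apc1638N/+, NWD1 and Ain76A mice, with log2 folds of 1.23, 1.38 and 1.47. In Apc1638N/+ mice it stood at 8.55, 10.73, 8.46 and 8.30 in crypts, against 6.51, 7.32, 9.51 and a blank in villi. Those tissues overlapped, with villus array 3 above each crypt array except array 2. The Apc1638N/+ call was lost with only these groups fitted. With its probe set measured on the most arrays, Rrp1b was called in p21-/- mice and lost its call on Ain76A.

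Whether the crypt-villus contrast itself differed was tested for Ain76A at 1 year against wild-type mice at 3 months, both wild-type animals on Ain76A. Ribosome biogenesis genes had larger contrasts in the 1-year mice: 5 of 22 members were called higher and none lower (background 6.48% higher, 5.37% lower). The median difference of log2 folds was 0.77, against 0.06 over all tested genes, and 21 of 22 were positive (background 53.7%). The 5 called were Ddx21 (difference 1.95, SE 0.47, adjusted p = 0.00804), Wdr43 (1.92, SE 0.45, adjusted p = 0.00709), Ddx18 (1.47, SE 0.50, adjusted p = 0.0495), Nip7 (1.29, SE 0.34, adjusted p = 0.0122) and Nop2 (1.08, SE 0.33, adjusted p = 0.0294). They are helicases, a processome protein and large subunit factors. Wdr43 levels at 1 year were 11.46, 11.18, 11.48 and 10.99 in crypts, against 7.97, 8.14, 8.80 and 8.56 in villi, beside the 3-month levels given above. Nip7 stood at 10.82, 10.88, 11.12 and 10.25 in crypts, against 8.80, 8.85, 8.68 and 8.50 in villi, at 1 year, and at 9.94, 9.79, 9.93 and 9.98 in crypts, against 9.16, 8.74, 8.96 and 9.71 in villi, at 3 months. For both genes every 1-year crypt array lay above every 3-month crypt array. The villi of the 2 ages overlapped for both through 3-month villus array 2 alone. The other 3-month villus arrays lay above every 1-year villus array, so crypts and villi both entered the larger contrast.
Age and arm of the study coincide and cannot be told apart. Without wild-type crypt arrays 2 and 4, those nearer to villi by the score, 0 members were called. Without wild-type crypt array 2, wild-type villus array 3 or 4, Ain76A crypt array 3, or Ain76A villus array 1 or 2, taken out one at a time, the count was 3. Ddx18 lost its call with the probe set measured on the most arrays, with a filter at the median of measured values, and with blanks at a floor. Nop2 lost its call with blanks at a floor and with only these groups fitted. Markers of other cells moved too. Of the enterocyte markers 3 of 9 were called lower (median difference -1.33). Of the tested lymphocyte markers 1 of 3 was called higher (median 1.94), and of the myeloid markers 1 of 3 (median 1.68), with all of both positive. The part of these cells in the result was not tested.

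**Figure D3:**
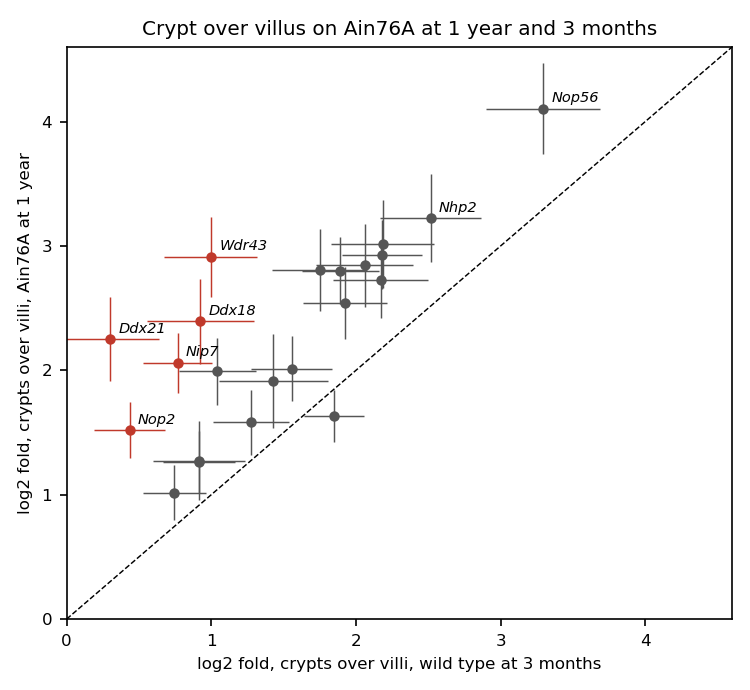
Log2 fold of crypts over villi on Ain76A at 1 year (y axis) against the same fold in wild-type mice at 3 months (x axis) for the 22 ribosome biogenesis genes tested in both, with bars of 1 SE and a dashed line of equality. Red points are the 5 genes whose difference passed an adjusted p under 0.05, all above the line, and 1 gene, Polr1c, lies below it. A different Polr1c probe set gave a difference of the opposite sign.

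The comparison of NWD2 with Ain76A in crypts asked whether diet altered these genes. Of 36 members tested, 8 were called lower in NWD2 crypts and none higher (background 3.36% lower, 5.22% higher). All 36 folds were negative, against 58.4% of all tested genes. The median log2 fold was -0.76, against -0.09 over all tested genes. Of 23 members with several tested probe sets, 1, Ebna1bp2, had probe sets of opposite sign. In 19 of the 36 members every NWD2 crypt array lay below every Ain76A crypt array, where 16.3% of all tested genes did so. The 8 were Nop56, Polr1c, Tsr1, Mybbp1a and 4 large subunit factors, Nip7, Gnl3, Noc3l and Nop2.

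Nop56 levels were 11.66, 10.61, 9.97 and 11.08 in NWD2 crypts, against 12.38, 11.87, 12.37 and 12.27 in Ain76A crypts (log2 fold -1.39, SE 0.36, adjusted p = 0.0128). Mybbp1a stood at 11.65, 10.34, 10.33 and 10.58 in NWD2 crypts, against 12.14, 11.75, 12.10 and 11.93 in Ain76A crypts (log2 fold -1.26, SE 0.35, adjusted p = 0.0207). NWD2 array 1 was the highest of its group for both genes and lay just below the lowest Ain76A array. Tsr1 had 11.12, 10.16, 9.73 and 10.50 in NWD2 crypts, against 11.49, 11.13, 11.35 and 11.39 in Ain76A crypts (log2 fold -0.96, SE 0.27, adjusted p = 0.0182). Gnl3 was at 11.29, 10.22, 10.09 and 10.90 in NWD2 crypts, against 11.62, 11.51, 11.76 and 11.35 in Ain76A crypts (log2 fold -0.94, SE 0.28, adjusted p = 0.0268). For Tsr1 and Gnl3, too, NWD2 array 1 was the highest of its group and lay just below the lowest Ain76A array.
Nip7, which binds the large subunit precursor, had 10.42, 9.35, 9.35 and 10.05 in NWD2 crypts, against 10.82, 10.88, 11.12 and 10.25 in Ain76A crypts (log2 fold -0.98, SE 0.24, adjusted p = 0.00831). Noc3l reached 8.93, 8.23, 8.18 and 8.80 in NWD2 crypts, against 9.22, 9.44, 9.61 and 9.16 in Ain76A crypts (log2 fold -0.82, SE 0.22, adjusted p = 0.0299). The Nip7 groups overlapped and the Noc3l groups did not. Polr1c levels were 10.28, 9.93, 9.61 and 10.17 in NWD2 crypts, against 10.90, 10.69, 10.75 and 10.59 in Ain76A crypts (log2 fold -0.73, SE 0.21, adjusted p = 0.0212). Nop2 stood at 9.80, 9.29, 9.20 and 10.15 in NWD2 crypts, against 10.39, 10.40, 10.59 and 10.00 in Ain76A crypts (log2 fold -0.74, SE 0.23, adjusted p = 0.0341). Polr1c groups were apart, and Nop2 array 4 of NWD2 lay within the Ain76A values. The other members of the box C/D, box H/ACA and nucleolar groups did not pass, among them Fbl (log2 fold -0.77, adjusted p = 0.138), Dkc1 (-0.84, adjusted p = 0.0778) and Ncl (-0.72, adjusted p = 0.109).

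**Figure D4:**
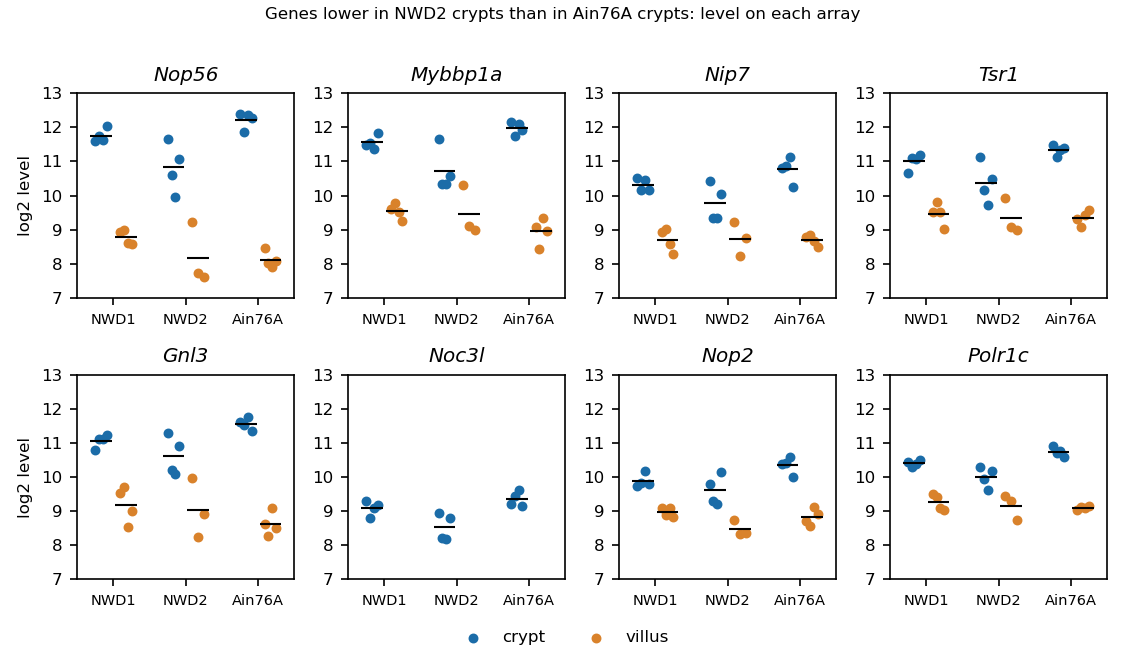
Log2 level on each array of the 8 ribosome biogenesis genes called lower in NWD2 crypts than in Ain76A crypts, for crypts (blue) and villi (orange) of the 3 diets, with horizontal bars at group means (n = 4, NWD2 villi n = 3, blanks not drawn). For each of the 8 genes NWD2 crypts spread over a wider range than the crypts of the other diets. Array 1 lies near the Ain76A crypts for most genes, and Noc3l has no villus value on the probe set used.

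Other measures moved with these genes in NWD2 crypts. Of 9 enterocyte markers measured, 7 were called higher (median log2 fold 1.51), and their mean log2 level was 13.95, 14.82, 15.11 and 14.59 in NWD2 crypts, against 12.89, 13.66, 13.55 and 12.58 in Ain76A crypts. Of 9 markers of cycling cells, 3 were called lower (median -1.12), and all 9 folds were negative. The mean log2 level of the 4 cycling markers measured on every array was 12.39, 11.78, 11.43 and 11.88 in NWD2 crypts, against 13.10, 12.76, 12.79 and 12.69 in Ain76A crypts. Every NWD2 crypt array lay above every Ain76A crypt array for the enterocyte markers, and below every one for the cycling markers. The part of these cells in the result was not tested. The crypt-villus score was 2.20, 1.60, 0.99 and 1.45 in NWD2 crypts, against 2.90, 2.22, 2.17 and 2.90 in Ain76A crypts. When the crypt-villus score entered the model, 0 members were called and the median log2 fold was -0.26. Under the authors' own scaling, without the quantile step (the deposited scaling), 4 were called, Nip7, Noc3l, Nop56 and Nop14, and the median was -0.66 against 0.01 over all genes. With the probe set measured on the most arrays for each gene, 8 were called, with Ddx18 in place of Noc3l. With the NWD2 and Ain76A crypts fitted alone, 29 were called. The count was 17 without NWD2 array 1, 0 without NWD2 array 2 or array 3, 2 without Ain76A array 1 and 3 without Ain76A array 3. Over all genes 478 were called higher and 308 lower, against 624 and 136 under the deposited scaling.

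In villi no member passed between NWD2 and Ain76A, 0 of 28 in either direction (limma, background 0.399%, with 2 of them at an unadjusted p under 0.05 where 11.5% of all tested genes were). The median log2 fold was 0.39, against 0.01 over all genes. Npm1 had the smallest p, with 12.27, 11.22 and 11.16 in NWD2 villi, against 11.03, 10.74, 10.78 and 10.73 in Ain76A villi (log2 fold 0.73, SE 0.29, adjusted p = 0.289). Bop1 and Ddx21 followed (log2 folds 0.49 and 0.74, adjusted p = 0.493 and 0.43). NWD2 villus array 1, which scored toward crypts, was the highest of the 3 arrays for Npm1.
The change of the crypt-villus contrast, NWD2 minus Ain76A, was negative in all 28 of 28 members tested (background 52.1%), with a median of -1.05 against -0.03 over all genes. None passed (limma, background 0.579%, with 19 of them at an unadjusted p under 0.05 where 19.6% of all tested genes were). Npm1 came closest (-1.41, SE 0.39, adjusted p = 0.0602), before Mybbp1a (-1.77, adjusted p = 0.0709) and Gnl3 (-1.34, adjusted p = 0.0784). Same-numbered crypts and villi deviated together on NWD2 and on Ain76A, and with the replicate number as a block 5 members were called lower, Gnl3, Mybbp1a, Nip7, Nop56 and Npm1. With only these groups fitted the count was 11. Without NWD2 crypt array 1 it was 7 and without NWD2 villus array 2 it was 1.

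For NWD1, no member was called in crypts: 0 of 37 passed in either direction (limma, background 0%, with 1 of them at an unadjusted p under 0.05 where 3.35% of all tested genes were). All 37 folds were negative, against 60.8% of all genes, with a median of -0.26 against -0.06, and of -0.19 under the deposited scaling. Of 24 members with several tested probe sets, 5 had probe sets of opposite sign (Dkc1, Ebna1bp2, Heatr1, Ncl and Wdr43). The smallest p was that of Nop2, with 9.74, 9.83, 10.16 and 9.81 in NWD1 crypts, against 10.39, 10.40, 10.59 and 10.00 in Ain76A crypts (log2 fold -0.46, SE 0.23, adjusted p = 1). These values overlapped. Nop14 (log2 fold -0.65, adjusted p = 1) and Nip7 (log2 fold -0.44, adjusted p = 1) were next. The folds of NWD1 and of NWD2 share the Ain76A crypts, so they are not independent of each other. Nop56 stood at 11.60, 11.75, 11.63 and 12.04 in NWD1 crypts, against the Ain76A values above (log2 fold -0.47), where its NWD2 fold was -1.39. Mybbp1a had 11.49, 11.54, 11.38 and 11.84 in NWD1 crypts (log2 fold -0.42). In NWD1 villi 0 of 29 members passed (limma, background 0.0563%, with 4 of them at an unadjusted p under 0.05 where 4.88% of all tested genes were), and the median log2 fold was 0.27, against -0.02 over all genes. Npm1 again had the smallest p, with 12.06, 11.89, 11.27 and 10.58 in NWD1 villi, against 11.03, 10.74, 10.78 and 10.73 in Ain76A villi (log2 fold 0.63, SE 0.27, adjusted p = 0.903). Arrays 1 and 2 of NWD1, which scored toward crypts, were its highest. Nop16 (log2 fold 0.75, adjusted p = 0.967) and Ddx21 (log2 fold 0.70, adjusted p = 0.996) followed. The Paneth cell marker measured on every array was at 15.89, 15.59, 14.27 and 13.98 in NWD1 villi, against 11.95, 11.19, 13.48 and 13.41 in Ain76A villi, and its part was not tested. The contrast NWD1 minus Ain76A was negative in all 29 of 29 members, with a median of -0.61 against 51.4% negative folds over all genes, and no call (limma, background 0%, with 5 of them at an unadjusted p under 0.05 where 2.62% of all tested genes were). Of 16 members with several tested probe sets, 1, Ebna1bp2, had differences of opposite sign. The smallest p were those of Gnl3 (-1.05, adjusted p = 0.999), Npm1 (-0.88, adjusted p = 0.999) and Nop56 (-1.13, adjusted p = 0.999).

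Few of these genes passed a test in p21-/- mice. In p21-/- crypts 2 of 33 members were called higher and none lower (background 3.41% higher, 1.75% lower), with a median log2 fold of 0.18 against 0.03 over all genes. Wdr43 (1428390_at) stood at 11.57, 11.43, 12.13 and 11.42 in p21-/- crypts, against 10.81, 10.23, 10.41 and 10.34 in wild-type crypts (log2 fold 1.19, SE 0.32, adjusted p = 0.025). Rrp1b (1452118_at), a nucleolar protein linked to RNA processing, stood at 10.12, 9.38, 10.55 and 9.59 in p21-/- crypts, against 7.95, a blank, 8.11 and 8.72 in wild-type crypts (log2 fold 1.65, SE 0.46, adjusted p = 0.0321). Neither gene's groups overlapped. Other probe sets of the same genes gave no call. Wdr43 probe set 1428389_s_at had 9.67, 9.81, 9.63 and 9.36 in p21-/- crypts, against 10.04, 9.49, 9.19 and 9.04 in wild-type crypts (log2 fold 0.18, SE 0.29, adjusted p over probe sets = 0.787). Rrp1b probe set 1456117_at had a blank, 8.20, 8.38 and 8.63 in p21-/- crypts, against 8.65, 8.23, 8.60 and 8.63 in wild-type crypts (log2 fold -0.12, SE 0.24, adjusted p over probe sets = 0.832). The groups overlapped on both of these probe sets. The remaining Rrp1b probe set, 1452119_at, stood at 9.28, 9.68, a blank and a blank in p21-/- crypts, against 8.03, 8.50, 7.61 and a blank in wild-type crypts, higher without overlap on too few arrays for a test. In villi, 1456117_at stood at 6.47, 7.39, a blank and 7.08 in p21-/- mice, against 8.11, 7.84, 8.37 and 8.17 in wild-type mice (log2 fold -1.15, SE 0.24, adjusted p over probe sets = 0.0709).
Wdr43, Rrp1b and Polr1c are the 3 members on chromosome 17, which also carries the deleted gene Cdkn1a (RefSeq, GRCm38.p6). Rrp1b lies nearest to it, then Polr1c, and Wdr43 lies farthest away, and the part of linked sequence in the result was not tested. Under the deposited scaling, and without wild-type crypt arrays 2 and 4, 1 member was called (Rrp1b). With the probe set measured on the most arrays it was Wdr43 alone. No member was called when the crypt-villus score entered the model, or with only the 2 groups fitted. Leaving out wild-type crypt array 1 or 3 or p21-/- crypt array 1 left 1, and leaving out wild-type crypt array 4 or p21-/- crypt array 3 left 0. Over all genes 248 were called higher and 127 lower, against 158 and 237 under the deposited scaling, where the median of the members was 0.01 and that of all genes -0.13. Markers of other cells moved too in p21-/- crypts, with 2 of 5 Paneth cell markers called higher, 1 of 4 myeloid markers called higher and 2 of 2 tested lymphocyte markers lower, and their part was not tested. Ddx21 was next in p (log2 fold 0.59, adjusted p = 0.323).

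**Figure D5:**
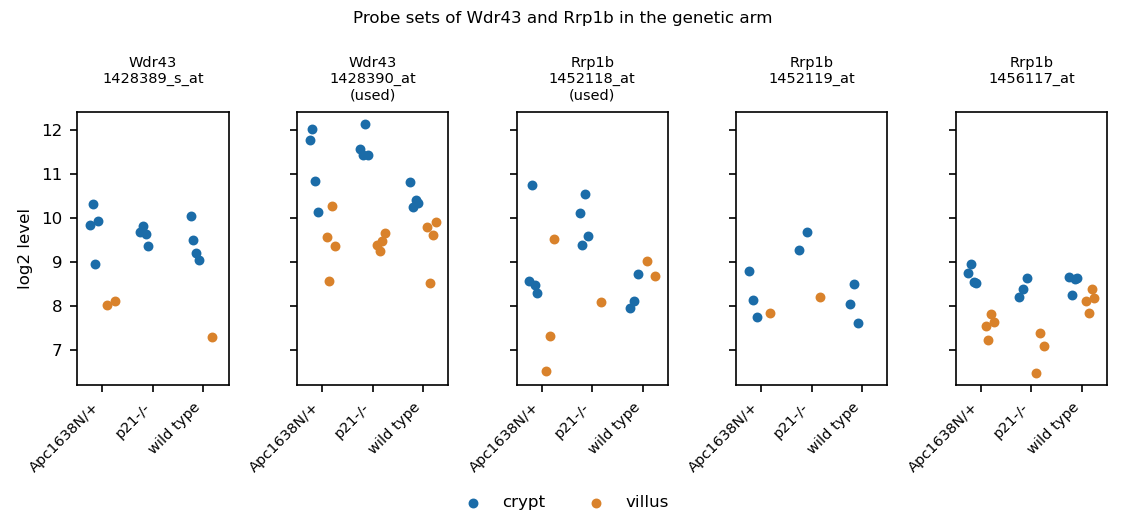
Log2 level on each array of the genetic arm for the probe sets of Wdr43 and Rrp1b that passed the filter, for crypts (blue) and villi (orange) of Apc1638N/+, p21-/- and wild-type mice, with blanks not drawn. The p21-/- crypts lie above the wild-type crypts on 1428390_at and 1452118_at, and overlap them on 1428389_s_at and 1456117_at.

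In p21-/- villi 0 of 22 members passed (limma, background 0.0383%, with 1 of them at an unadjusted p under 0.05 where 10.9% of all tested genes were), and the median log2 fold was -0.02. Polr1c had the smallest p there, with 9.21, 9.22, 9.64 and 9.00 in p21-/- villi, against 8.73, 8.57, 8.81 and 8.71 in wild-type villi (log2 fold 0.56, SE 0.21, adjusted p = 0.292). These values did not overlap, but another Polr1c probe set, 1417041_at, had a fold of the opposite sign. Wdr74 (log2 fold 0.54, adjusted p = 0.481) and Nop2 (log2 fold -0.43, adjusted p = 0.532) were next. In Apc1638N/+ crypts 0 of 34 passed (limma, background 0.0385%, with 3 of them at an unadjusted p under 0.05 where 12.3% of all tested genes were), and the median was 0.08. Wdr43 had 11.77, 12.03, 10.84 and 10.12 in Apc1638N/+ crypts, against the wild-type values above (log2 fold 0.74, SE 0.32, adjusted p = 0.33). Bop1 stood at 9.22, 9.02, 9.89 and 9.09 in Apc1638N/+ crypts, against 9.85, 9.80, 10.39 and 9.47 in wild-type crypts (log2 fold -0.57, SE 0.25, adjusted p = 0.334). Both sets overlapped, with Wdr43 array 4 of Apc1638N/+ below every wild-type array. Nop14 was next (log2 fold 0.70, adjusted p = 0.382). In Apc1638N/+ villi 0 of 22 passed (limma, background 0.0254%, with 1 of them at an unadjusted p under 0.05 where 5.32% of all tested genes were), and the median was 0.09. Polr1c stood at 9.57, 9.40, 9.47 and 9.13 in Apc1638N/+ villi (log2 fold 0.69, SE 0.21, adjusted p = 0.61), all above the wild-type villi, with Nop2 (log2 fold -0.46, adjusted p = 0.902) and Ebna1bp2 (log2 fold 0.42, adjusted p = 0.902) next. Other probe sets of Polr1c and Ebna1bp2 had folds of the opposite sign in these villi. The p21-/- and Apc1638N/+ folds share the same wild-type arrays. No change of the crypt-villus contrast passed in either genotype. For p21-/- 0 of 22 members were called (limma, background 1.63%, with 3 of them at an unadjusted p under 0.05 where 17.6% of all tested genes were), with Wdr43 (1.21, adjusted p = 0.14), Nop2 (0.80, adjusted p = 0.21) and Ddx21 (1.03, adjusted p = 0.237) of smallest p. For Apc1638N/+ 0 of 22 were called (limma, background 0.0144%, with 0 of them at an unadjusted p under 0.05 where 6.24% of all tested genes were), with Wdr43 (0.75, adjusted p = 0.826), Polr1c (-0.47, adjusted p = 0.829) and Nip7 (0.53, adjusted p = 0.829) of smallest p. Their median differences were 0.16 and -0.07. Another Polr1c probe set had an Apc1638N/+ difference of the opposite sign.

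A further list of 127 symbols of ribosome biogenesis, of which 114 passed the filter, had more calls higher than lower in crypts. In wild-type mice 36 of 77 were higher in crypts and 5 lower (median log2 fold 0.60, background 20.3% higher, 26% lower). On Ain76A 70 of 86 were higher and 2 lower (median 1.16, background 26.8% higher, 25.8% lower). The highest in wild-type mice were Lyar (log2 fold 1.85, SE 0.27, adjusted p = 6.48e-07), Wdr75 (log2 fold 1.83, SE 0.35, adjusted p = 4.73e-05) and Brix1 (log2 fold 1.82, SE 0.26, adjusted p = 3.55e-07). On Ain76A they were Utp25 (log2 fold 2.81), Exosc8, a subunit of the RNA exosome (2.81), and Wdr75 (2.61). Some members of this list fell in crypts. Sbds and Eif6 act at the last step, in which Sbds helps to release Eif6 from the new 60S subunit so that it can join a ribosome. Sbds was lower in crypts in wild-type mice (log2 fold -1.39, SE 0.23, adjusted p = 4.72e-06) and on Ain76A (log2 fold -0.93, SE 0.23, adjusted p = 0.000713). Eif6 was lower in both as well, with log2 folds of -0.59 (adjusted p = 0.0169) and -1.08 (adjusted p = 2.5e-05). In wild-type mice Riok1 (-0.87, adjusted p = 0.0392) and Ubtf, the polymerase I transcription factor UBF (-0.65, adjusted p = 0.026), were also lower in crypts.
In NWD2 crypts 12 of 104 genes of the list were called lower than in Ain76A crypts and none higher (median log2 fold -0.46, background 3.36% lower). In p21-/- crypts 5 of 89 were called higher (median 0.23, background 3.41% higher), and in NWD1 and Apc1638N/+ crypts none (background 0% and 0.0385%). The contrast was called larger on Ain76A at 1 year than in wild-type mice at 3 months for 19 of 76 (background 6.48%), with a median difference of 0.65.

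Ribosomal protein genes, the products that these factors assemble, were taken as a group by symbol after the data had been seen. In crypts 37 of 39 were higher in wild-type mice (median log2 fold 1.17, background 20.3%), 34 of 40 on NWD2 (1.06, background 7.6%) and 39 of 42 on Ain76A (1.90, background 26.8%). In NWD2 crypts 1 of 43 was called lower than in Ain76A crypts (background 3.36%), with a median of -0.38, against 8 of 36 and -0.76 for the biogenesis genes. The difference between the groups of genes was not tested.
Myc was called higher in crypts on NWD1 (log2 fold 2.29, SE 0.46, adjusted p = 0.000162) and in Apc1638N/+ mice (log2 fold 1.13, SE 0.43, adjusted p = 0.0321), and did not pass in p21-/- mice (log2 fold 1.06, SE 0.46, adjusted p = 0.0587). In the other conditions it was measured on too few villus arrays. In NWD2 crypts Myc averaged 9.41 ± 0.40, against 10.60 ± 0.39 in Ain76A crypts (SD, n = 4 each), and the difference did not pass (log2 fold -1.19, SE 0.43, adjusted p = 0.0755). Mxd1 and Mxi1 encode partners of Max that oppose Myc at the E-box. On Ain76A Mxd1 (log2 fold -4.03, SE 0.39, adjusted p = 6.8e-11) and Mxi1 (log2 fold -2.91, SE 0.27, adjusted p = 5.05e-11) were lower in crypts, where 25.8% of all tested genes were. Mxd1 and Mxi1 were named for the size of their folds, and the other relatives of Myc are not reported here. Mxi1 was called higher in NWD2 crypts than in Ain76A crypts (log2 fold 1.08, SE 0.27, adjusted p = 0.0106), where 5.22% of all tested genes were.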

How the data were processed

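RNA of crypts and villi was measured on 47 arrays in 12 groups. The deposited table holds log2 values per probe set that the authors made from the scanned arrays with GCOS, per the submitters' processing notes, whose version and settings are not given in the sources used here. 55.3% of the values are blank, for a reason the files do not give. Arrays were quantile normalised on the 8350 probe sets measured on every array. Probe sets above the array median on at least 3 arrays were kept (30287, of 45037 without controls), with blanks ranked lowest in that median. On most arrays the median was itself a blank, so any measured value passed there and low values were not removed. The probe set of highest mean level per gene was used. The 12 groups were fitted with limma 3.58.1 (R 4.3.3, trended prior), with Benjamini-Hochberg adjustment over all genes tested in a comparison. Calls had an adjusted p under 0.05, and the code was tested on simulated data. Any of the 39 members could be named. Required were the 6 of largest fold and those not passing between crypts and villi, and elsewhere each called member and the 3 of smallest p. The members and lists were chosen with earlier results of these data known. The main fit used no pairing, and the replicate number as a block was an alternative fit, run in every condition. Same-numbered crypts and villi were said to deviate together where the correlation of deviations exceeded 0.1 in every pair. This held on NWD2 (0.285 to 0.487) and Ain76A (0.133 to 0.29). In Apc1638N/+ (0.0361 to 0.569) and p21-/- mice (0.0733 to 0.4) all pairs were positive and 1 of 4 fell below 0.1. Promoters were RefSeq's (GRCm38.p6).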

Additional observations from a re-analysis of the deposited data

Results flagged for a closer look

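Single arrays stood far from the rest of their group in 5 of 235 sets of 4 arrays examined over the named members, by Dixon's 95% limit, which chance passes in about 1 set in 20. Rrp1b was at 10.73 on Apc1638N/+ crypt array 2, with the other arrays of that group from 8.296 to 8.552. Fbl was at 11.10 on p21-/- crypt array 4, below the others (11.92 to 12.04), and at 12.62 on NWD1 crypt array 4, above the others (12.03 to 12.12). Bop1 was at 10.34 on NWD2 crypt array 1, above the others (9.886 to 9.951), and Npm1 at 11.03 on Ain76A villus array 1, above the others (10.73 to 10.78).

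The contrast between crypts and villi was larger on Ain76A at 1 year than in wild-type mice at 3 months for Ddx21 (1.95), Wdr43 (1.92), Ddx18 (1.47), Nip7 (1.29) and Nop2 (1.08), as differences of log2 folds that passed the limma test of the difference itself.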

How the results depend on the processing

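The counts of members called higher in crypts kept their direction under every alternative run. With 1 array left out they ran 16 to 20 in wild-type, 21 to 24 in Apc1638N/+, 20 to 24 in p21-/-, 29 to 31 in NWD1, 9 to 24 in NWD2 and 25 to 30 in Ain76A mice. For NWD2 over Ain76A crypts, 8 calls became 4 under the deposited scaling, 29 with only those groups fitted, 0 with the crypt-villus score in the model and 0 to 17 with 1 array left out. For p21-/- over wild-type crypts, 2 calls became 1 under the deposited scaling, 1 with the probe set measured on the most arrays, 1 without wild-type crypt arrays 2 and 4, 0 with only those groups fitted, 0 with the score in the model and 0 to 2 with 1 array left out. For the contrast on NWD2 minus Ain76A, 0 calls became 11 with only those groups fitted, 5 with the replicate block and 0 to 7 with 1 array left out. For Ain76A minus wild type, 5 calls became 0 without wild-type crypt arrays 2 and 4 and 3 to 7 with 1 array left out. The comparisons with no call stayed at 0 with 1 array left out, as did both contrasts of genotypes and that of NWD1.

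Signs turned for Ddx18 in p21-/- crypts over villi with blanks at a floor (-0.081, adjusted p = 0.903), Nop2 in Apc1638N/+ over wild-type villi with the same floor (0.24, adjusted p = 0.934) and Rrp1b in p21-/- over wild-type crypts with the probe set measured on the most arrays (-0.12, adjusted p = 0.834). They also turned for Npm1 with the score in the model, in NWD1 over Ain76A villi (-0.022) and NWD2 over Ain76A villi (-0.15). The causes were not tested. Over the named members 1475 of 1604 recomputed values kept their direction and side of the threshold, 83 lost a call, 41 gained one and 5 turned sign. The filter at the median of measured values was chosen after seeing the data and moved no count of calls by over 1.5 times. The replicate block gave 20, 25, 23, 31, 23 and 30 members higher in crypts in wild-type, Apc1638N/+, p21-/-, NWD1, NWD2 and Ain76A mice, 10 lower in NWD2 than in Ain76A crypts and 2 higher in p21-/- than in wild-type crypts. Between crypts of different diets or genotypes the block was the replicate number alone, shared over all arrays, and such samples come from different mice. The labels do not say whether same-numbered crypts and villi of a condition share an animal. Groups of 3 or 4 arrays and the blanks limit which members could be tested, and members with few villus values are left out of the counts. Such members were not always low in villi where measured. Rrp1b, not tested in wild-type mice, had a blank, a blank, 9.01 and 8.68 in villi, against 7.95, a blank, 8.11 and 8.72 in crypts.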

Other observations

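In the further ribosome biogenesis list 5 of 89 genes were called higher in p21-/- than in wild-type crypts, where 3.41% of all tested genes were. Among them were Ubtf, the RNA polymerase I transcription factor UBF (log2 fold 1.09, SE 0.24, adjusted p = 0.00871), and Rsl24d1, a large subunit factor (log2 fold 1.31, SE 0.37, adjusted p = 0.0325). Genes of the same list lower in NWD2 than in Ain76A crypts included Exosc8, a subunit of the RNA exosome (log2 fold -1.14, SE 0.29, adjusted p = 0.00929), Emg1, a methyltransferase of the small subunit RNA (log2 fold -1.09, SE 0.23, adjusted p = 0.00246), and Ppan, a large subunit factor (log2 fold -1.05, SE 0.25, adjusted p = 0.0112). These genes were named after their values had been seen.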
